A study of Mus musculus with 8 samples.

Results

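The regions described here were places in the mouse genome where small intestinal crypts of fed mice had a peak of H3K27 acetylation and crypts of fasted mice had none. They were selected on the peaks themselves: overlapping peaks (by at least 1 bp) of the 8 H3K27ac peak lists on the autosomes, X and Y were merged, and a merged region was kept when at least 3 of the 4 Fed lists and 0 of the 4 Fast lists held a peak there. This gave 522 of 112301 merged regions, or 0.465%, of which 94 had a peak in all 4 Fed lists and 428 in 3. The opposite rule, 3 or 4 Fast lists and no Fed list, gave 1625 regions, or 1.45%. Because the lists set both counts, they are a description and were not tested. With the lists of 1 number left out, the rule became a peak in both remaining Fed lists and in neither remaining Fast list. With the lists numbered 1 left out, 2486 of 66698 merged regions met it and 1636 the opposite one, so the order of the 2 counts turned. With the lists numbered 2 left out, they were 705 and 5152 of 98136. Regions that met the first rule, over all 8 lists, are called Fed-only here.

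The study asked how fasting alters the chromatin of crypts and whether the gut microbiota takes part. H3K27ac and H3K9ac were measured by CUT&Tag, in which an antibody guides a transposase to a histone mark and the fragments it cuts out are sequenced, with mouse IgG named beside the H3K27ac antibody and rabbit IgG beside the H3K9ac antibody. All mice were C57BL/6J males 9 weeks old. The 4 groups of each mark were Fed (-Tetra), Fast (-Tetra), Fed (+Tetra) and Fast (+Tetra), where Fast is 24 h without food and +Tetra is 21 days of tetracycline, an antibiotic. Crypts were shaken off in EDTA and made into single cells with trypsin, and the labels name no sort of cells. Each group was 1 sample with 2 peak lists, numbered 1 and 2, and the labels do not say whether the 2 lists came from different mice, so no p-value was computed and each list's value is given.

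H3K27ac is written by the acetyltransferases CBP and p300 and marks active enhancers and promoters, while H3K9ac is found above all at active promoters. In the crypt, stem cells at the base divide and their daughters become absorptive enterocytes or secretory cells as they move towards the villus. Enterocytes carry the transporters and brush-border enzymes that take up sugars, peptides and fat, and many of their enhancers are bound by HNF4, CDX2 and GATA factors.

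Of the 8 H3K27ac lists, the Fed lists held 32392 to 48242 peaks and the Fast lists 36737 to 68545, and the sequencing depth behind them is unknown. Peaks lay within 1 kb of an end of 13 or 14 of 15 epithelial marker genes in every list, of 2 to 12 of 20 immune genes, and of 1 to 5 of 20 stromal, muscle, nerve and endothelial genes. The list with only 2 immune genes was Fed (+Tetra) list 1. The lists are peak calls, so a larger share of a cell type and more acetylation per cell cannot be told apart.

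The sequence of most of the 522 regions is not shown, since no genome was used, but 28 RefSeq promoter windows (GRCm38.p6, the 250 bases before a start site) of 26 genes overlapped one of them. The 6 below were wholly inside such a region and belong to genes that had no H3K27ac peak within 1 kb of either end in any Fast list. They are shown because the Fed-only pattern held for the ends of the gene as well as for the region. The windows of Itpkb and Wnt4, whose ends also had no Fast peak, lay only partly inside a region and are not shown. An overlapping Ttc7b window, chr12:100520838-100521087, is also not shown. The pattern did not always hold for the rest of the gene. Away from their ends, Tle6 and Plcg2 each also held 1 region of the opposite rule. Plcg2 and Ttc7b held 1 and 3 regions with a peak in all 8 lists. Each promoter is printed 5′ to 3′ on the strand of its gene, and capitals mark matches to any of 12 short motifs searched on both strands.
Tle6 (chr10:81600901-81601150, minus strand): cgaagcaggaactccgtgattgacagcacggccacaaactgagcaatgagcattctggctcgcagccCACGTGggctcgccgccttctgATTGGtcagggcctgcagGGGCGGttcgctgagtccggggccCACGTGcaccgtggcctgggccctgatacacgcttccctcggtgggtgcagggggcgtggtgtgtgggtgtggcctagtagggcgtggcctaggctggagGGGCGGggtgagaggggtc
Rbm28 (chr6:29164725-29164974, minus strand): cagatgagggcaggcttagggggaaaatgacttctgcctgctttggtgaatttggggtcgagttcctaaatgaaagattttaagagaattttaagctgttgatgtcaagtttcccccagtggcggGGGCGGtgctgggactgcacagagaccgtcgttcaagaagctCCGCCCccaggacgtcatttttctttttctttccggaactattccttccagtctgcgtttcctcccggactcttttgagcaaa
Plcg2 (chr8:117498025-117498274, plus strand): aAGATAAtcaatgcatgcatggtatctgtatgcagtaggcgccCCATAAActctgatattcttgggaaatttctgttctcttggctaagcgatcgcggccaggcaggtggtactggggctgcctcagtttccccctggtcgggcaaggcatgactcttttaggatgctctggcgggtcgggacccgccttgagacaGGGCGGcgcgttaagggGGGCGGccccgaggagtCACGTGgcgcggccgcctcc
Asap3 (chr4:136206115-136206364, plus strand): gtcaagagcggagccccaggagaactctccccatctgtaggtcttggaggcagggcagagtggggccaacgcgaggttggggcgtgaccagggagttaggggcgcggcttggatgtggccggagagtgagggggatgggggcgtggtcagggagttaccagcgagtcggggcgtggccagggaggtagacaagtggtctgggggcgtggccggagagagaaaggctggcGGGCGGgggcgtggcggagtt
Ttc7b (chr12:100520823-100521072, minus strand): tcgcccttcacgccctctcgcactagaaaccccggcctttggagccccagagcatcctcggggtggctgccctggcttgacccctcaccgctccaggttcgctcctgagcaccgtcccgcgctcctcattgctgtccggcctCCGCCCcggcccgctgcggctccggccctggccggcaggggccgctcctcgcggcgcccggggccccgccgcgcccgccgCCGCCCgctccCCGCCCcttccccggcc
Klhl7 (chr5:24100340-24100589, plus strand): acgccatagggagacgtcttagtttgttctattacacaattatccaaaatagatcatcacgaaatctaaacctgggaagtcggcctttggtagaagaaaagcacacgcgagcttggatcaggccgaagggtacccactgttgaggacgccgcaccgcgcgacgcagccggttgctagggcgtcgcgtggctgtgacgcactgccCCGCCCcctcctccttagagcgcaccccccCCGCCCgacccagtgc

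Tle6 encodes a Groucho-family protein, Rbm28 a nucleolar RNA-binding protein, and Plcg2 a phospholipase C that acts behind immune receptors. Asap3 encodes a GTPase-activating protein for ARF proteins, and Klhl7 an adaptor of a ubiquitin ligase. The role of Ttc7b is in bringing phosphatidylinositol 4-kinase to the plasma membrane. The GC content of the 6 windows lay between 49.6% and 78%. Each of the 6 held at least 1 GC box, the letters GGGCGG on either strand. The Tle6 window also held the palindromic E-box CACGTG, which clock and MYC-family factors can bind, and a CCAAT box. The Plcg2 window held an E-box, a GATA match (AGATAA) and a CDX match (TTTATNG).

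Although these 6 promoters had no Fast H3K27ac peak, all 6 regions had H3K9ac in lists of both feeding states. The Rbm28 region had an H3K9ac peak in all 4 Fed and 3 Fast lists. The Tle6, Plcg2 and Ttc7b regions had one in 2 Fed and 2 Fast lists each. The Asap3 and Klhl7 regions had one in 1 Fed and 3 Fast lists. None of the 6 therefore carried in H3K9ac the Fed-only pattern that chose them in H3K27ac. Only 0.256% of all merged regions carried it in H3K9ac, so finding none among 6 is near the background.

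Over all 28 windows the median GC content was 54.4% and the median number of CpG dinucleotides was 10. The 14329 windows that overlapped any H3K27ac region had 59.2% and 15, and all 32817 windows 52.4% and 6, so windows at the Fed regions lay between the other sets on both measures. A GC box was found in 14 of the 28 windows (50%), against 54.6% of windows at any H3K27ac region and 32.7% of all windows. The E-box was found in 4 (14.3%, against 8.22% and 6.02%), and the CDX letters in 4 (14.3%, against 6.6% and 9.81%). The CCAAT box was found in 8 (28.6%, against 35% and 33.8%). The TATA box, TATAAA, was found in 3, the ETS letters CCGGAAG in 2, and the GATA letters in 2. The AP-1 letters TGANTCA, the forkhead letters TGTTTAC and the TCF letters CTTTGAT were found in 1 window each. The cAMP response element TGACGTCA and the HNF4 letters CAAAGTCCA were found in none of the 28, and in 2.46% and 0.461% of windows at any H3K27ac region. With 28 windows 1 match is 3.57%, so these shares are coarse. The motifs can overlap one another, and a match shows only that the letters are present.

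The 522 regions did not draw equally on the 4 Fed lists. Fed (-Tetra) lists 1 and 2 held a peak at 364 (69.7%) and 505 (96.7%) of them, and Fed (+Tetra) lists 1 and 2 at 281 (53.8%) and 510 (97.7%). Both lists numbered 2 held a peak at 493 regions, and both lists numbered 1 at 123. Both lists without tetracycline held one at 347 regions and both with tetracycline at 269. The split therefore ran along the number of the list more than along tetracycline, and the lists numbered 1 were the shorter in both Fed groups.

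The combinations show the same. The most frequent one, 241 regions (46.2%), lacked only Fed (+Tetra) list 1, and 158 (30.3%) lacked only Fed (-Tetra) list 1. The 94 regions with all 4 Fed lists made up 18%. Only 17 regions (3.26%) lacked Fed (-Tetra) list 2 and 12 (2.3%) lacked Fed (+Tetra) list 2.

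**Figure D1:**
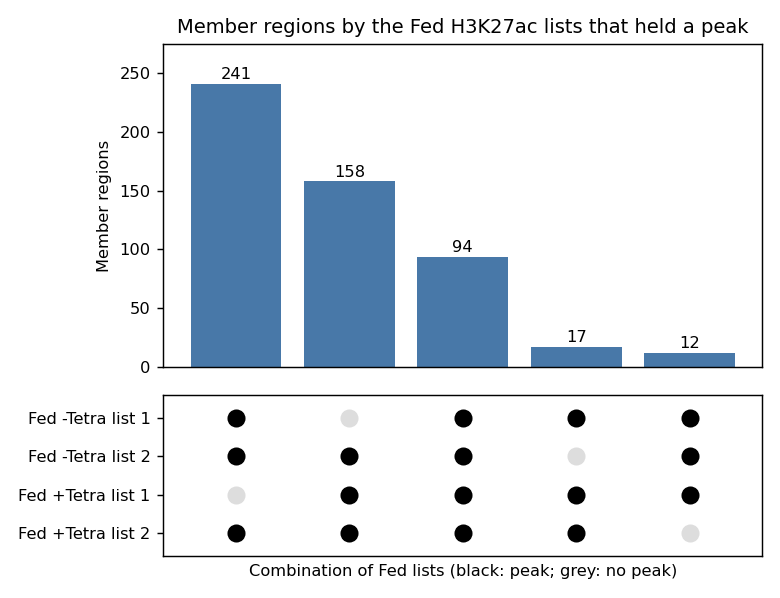
Number of Fed-only H3K27ac regions (y axis) by the combination of Fed lists that held a peak, with black dots below each bar for lists with a peak and grey dots for lists without. The 2 tallest bars, 241 and 158 regions, each lack one of the lists numbered 1.

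Just outside the rule lay 1760 regions with a peak in 2 Fed lists and no Fast list, and 1247 with a peak in 3 or 4 Fed lists and 1 Fast list. The lone Fast list of these 1247 was Fast (-Tetra) list 2 in 627 (50.3%), Fast (+Tetra) list 1 in 304 (24.4%), Fast (+Tetra) list 2 in 197 (15.8%) and Fast (-Tetra) list 1 in 119 (9.54%). The longest Fast list was thus the one that least often removed a region from the set. For scale, 16401 regions had a peak in all 8 lists.

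The peaks of the Fed-only regions scored low in their lists. The width of the regions ran from 455 to 2637 bp with a median of 877 bp. This was above the median of 655 bp over all merged regions, and below 1009 bp for the regions of the opposite rule and 2102 bp for regions with a peak in all 8 lists. Together they covered 0.478 Mb. Scores, the authors' own value for a peak, were ranked within each list, so that the best peak of a list has a percentile of 100. The median percentile of the Fed-only regions was 24.8 in Fed (-Tetra) list 1, 26.1 in Fed (-Tetra) list 2, 20.3 in Fed (+Tetra) list 1 and 31.0 in Fed (+Tetra) list 2. The regions shared by all 8 lists had medians of 72.7, 80.8, 71.1 and 81.2 in the same order. The regions with 1 Fast list had 30.5, 32.7, 20.2 and 37.2. Only 42 regions (11.5% of those with a peak) in Fed (-Tetra) list 1, 38 (7.52%) in Fed (-Tetra) list 2, 9 (3.2%) in Fed (+Tetra) list 1 and 77 (15.1%) in Fed (+Tetra) list 2 lay in the upper part of the list, above its median score. Regions with all 4 Fed lists had a median percentile of 32.0 and a median width of 963 bp, and those with 3 had 25.03 and 859.5 bp.

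**Figure D2:**
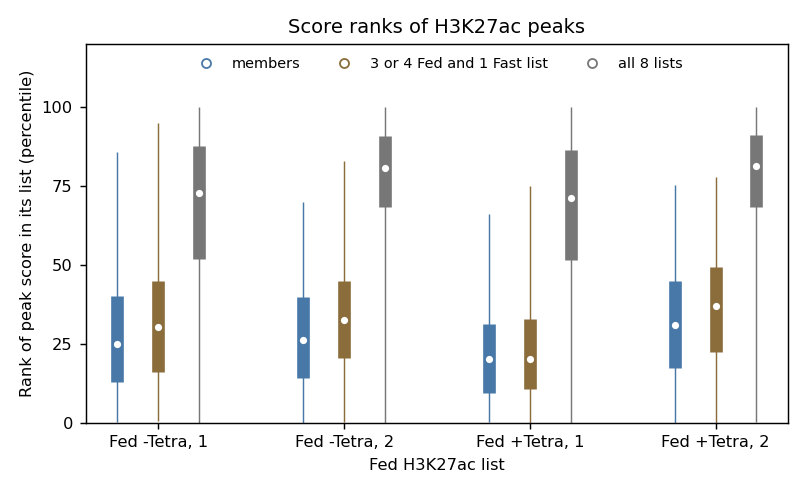
Percentile of the peak score within its list (y axis) in the 4 Fed H3K27ac lists (x axis), for the Fed-only regions, for regions with 3 or 4 Fed lists and 1 Fast list, and for regions in all 8 lists. White points are medians, thick bars span the quartiles and thin lines the range. The medians of the Fed-only regions, 20.3 to 31.0, lie below those of the shared regions, 71.1 to 81.2, in every list.

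Many of these regions lay close to acetylation that the Fast lists did hold. The distance to the nearest peak of any Fast list had a median of 2085 bp, and ran from 3 to 236101 bp. It was at most 200 bp for 37 regions (7.09%), at most 1 kb for 168 (32.2%) and at most 5 kb for 381 (73%). Regions of the opposite rule lay farther from Fed peaks, with a median of 5653 bp, 256 (15.8%) within 1 kb and 762 (46.9%) within 5 kb. The Fast lists hold more peaks than the Fed lists in all, and the part of this in the distances was not tested. To a single Fast list the median distance was 3296 to 5390 bp. A region shared by all 8 lists lay within 5 kb of 176 Fed-only regions (33.7%) and within 50 kb of 401 (76.8%).

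**Figure D3:**
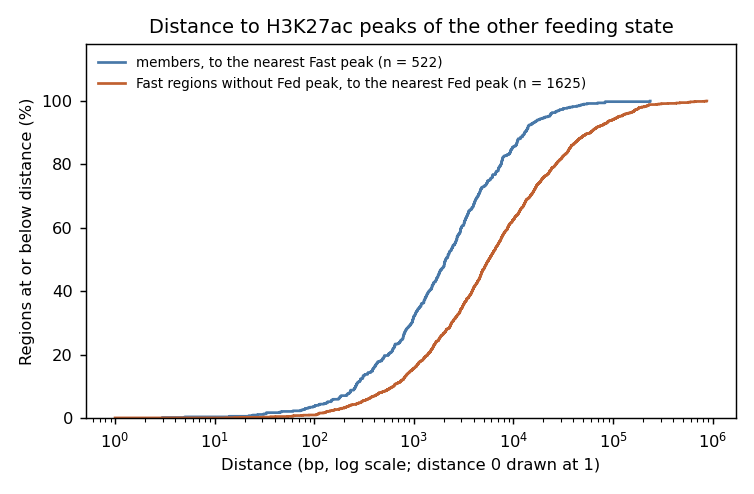
Share of regions (y axis) whose nearest H3K27ac peak of the other feeding state lies at or below a distance in bp (x axis, log scale), for the 522 Fed-only regions against Fast peaks and for the 1625 Fast-only regions against Fed peaks. The curve of the Fed-only regions lies to the left, with medians of 2085 and 5653 bp.

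Most of the regions were away from the ends of genes. Of the 522, 45 (8.62%, exact Clopper-Pearson 95% interval 6.36 to 11.4, counting error only) lay within 1 kb of an end of a protein-coding gene, 271 (51.9%) inside a gene and 206 (39.5%) between genes. Of all merged regions, 13.6% lay at gene ends, 47.6% inside and 38.8% between genes. Regions shared by all 8 lists had 40.7% at gene ends, and the regions of the opposite rule 8.31%, close to the share of the Fed-only regions. The 271 inside genes had 260 host genes, of which 212 (81.5%) also held a region shared by all 8 lists. Those between genes lay at a median of 21769 bp from the nearest gene, and 51 of the 206 overlapped a long noncoding RNA gene. The farthest, chr3:21434137-21434999, lay 641253 bp from Tbl1xr1. None of the 522 overlapped a miRNA hairpin. For the host genes and the noncoding overlaps, the same shares over all merged regions are not given here. Neither value can be read as particular to the Fed-only regions.

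The regions were scattered. They had 493 nearest genes, 27 of which were nearest to 2 regions and 1, Msra, to 3. Msra encodes methionine sulfoxide reductase A, which repairs oxidised methionine. Its regions were chr14:64138717-64140254 and chr14:64203011-64203731 inside the gene, both without Fed (-Tetra) list 1, and chr14:64495645-64496325, 39741 bp away, with all 4 Fed lists. The score percentiles of the last were 2.71 and 30.1 without and 12.5 and 21.2 with tetracycline. Msra itself had no H3K27ac peak at an end in any of the 8 lists. In 10 cases neighbouring regions lay within 20 kb of each other, among them 402 bp apart at Spg20, 910 bp at Enpp3 and 11179 bp inside Dnajc13.

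A total of 46 genes had a Fed-only region within 1 kb of an end. Of these, 16 were also marked at an end in all 4 Fast lists, 13 in 1 to 3 of them and 17 in none. The rule allows no Fast peak in the region itself, which favours the last group. The same counts over all genes with an H3K27ac region at an end are not given here. The 17 were Asap3, Atad2, Best3, Cdk5r1, Cyp4a12b, Dedd, Etv3l, Foxo4, Itpkb, Klhl7, Plcg2, Rbm28, Sema7a, Slfn2, Tle6, Ttc7b and Wnt4. Cdk5r1, Slfn2 and Tle6 were marked in all 4 Fed lists. Cyp4a12b and Slfn2 have close relatives in the genome, and how reads matching several places were treated is not given in the sources used here.

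Of the gene-end regions with the highest scores, 4 are given in full. At Mcl1, an anti-apoptotic BCL2 relative, chr3:95655228-95656276 began 667 bp outside the gene. Its percentiles were 27.6 and 40.5 in the Fed (-Tetra) lists and 41.1 in Fed (+Tetra) list 2, and Mcl1 was marked at an end in all 4 Fast lists too. At Foxo4, a forkhead factor held back by insulin signalling, chrX:101253818-101254938 had percentiles of 21.9, 44.8 and 38.3 in the same lists. Foxo4 had no H3K27ac peak at an end in any Fast list, but the region had H3K9ac in all 8 H3K9ac lists. The only other Fed-only region with H3K9ac in all 8 was chr2:127008221-127009274 over the start site of Ap4e1, a subunit of the AP-4 adaptor complex. It had all 4 Fed lists, with percentiles of 35.6, 47.8, 48.4 and 6.67. Uros, a heme synthesis enzyme, shared with its neighbour Bccip the region chr7:133709939-133711344. All 4 Fed lists held it, at percentiles of 40.0, 65.2, 44.1 and 46.3, and a Fast peak lay 125 bp away.

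The other gene-end regions named by score were at Mup5, Zfp385c, Tyrobp, Etv3l, Sema7a, Best3, Pvrig and Hspb11. Each had 3 Fed lists. Mup5, a major urinary protein, had the highest median percentile of any gene-end region, 52.1, but sits in a cluster of near-identical genes, so its peak is uncertain. At Best3, of the bestrophin channel family, the percentiles were 39.3 in Fed (-Tetra) list 2, 54.5 in Fed (+Tetra) list 1 and 1.79 in Fed (+Tetra) list 2, which shows how far the lists could differ at 1 region. Tyrobp, an adaptor of myeloid and natural killer cell receptors, and Pvrig, an inhibitory lymphocyte receptor, both lacked Fed (+Tetra) list 1. So did the regions at Etv3l, Sema7a and Hspb11.

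Away from gene ends, the 10 highest-scoring regions with all 4 Fed lists were at Dnajc13, Ppm1h, Fgd5, Ccng2, Gnb1, Adgrl2, Src, Il33, Tatdn1 and Pik3r3. At Dnajc13, an endosomal co-chaperone, chr9:104200737-104201964 reached percentiles of 52.1 and 44.3 in the Fed (-Tetra) lists and 66.0 and 67.3 in the Fed (+Tetra) lists. It was the only one of the 10 above 50 in both Fed (+Tetra) lists. At Pik3r3, a regulatory subunit of phosphatidylinositol 3-kinase, chr4:116234874-116236242 had 41.8 and 70.0, then 25.6 and 50.4, with no Fast peak within 12686 bp. At Src, a membrane-bound tyrosine kinase, chr2:157454813-157456083 had 38.0 and 57.5, then 23.6 and 55.7, but a Fast peak lay 265 bp away. The region nearest Il33, an alarmin cytokine, chr19:29911784-29912670, lay 12442 bp outside the gene and had 45.8 and 50.3, then 15.7 and 47.4. Il33 itself had no H3K27ac peak at an end in any Fed or Fast list. For Gnb1, a G protein subunit, and Ccng2, cyclin G2, the percentiles in Fed (+Tetra) list 1 were 3.22 and 0.543, at the bottom of that list.

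Of 15 gene lists examined, that of the absorptive enterocyte held the largest share of Fed-only regions. Of the 20 genes of that list, 5 held a Fed-only region: Slc5a1, the sodium-glucose transporter SGLT1, Lct, the brush-border lactase, Slc15a1, the peptide transporter PEPT1, Mttp, which loads fat onto chylomicrons, and Cdhr2, a protocadherin of the microvilli. They were 5 of the 105 merged regions at these genes, or 4.76%, against the background of 0.465%. None of the 105 followed the opposite rule, whose background was 1.45%. The count is small and the list was written with earlier results of these data known, so nothing was tested. With the lists numbered 2 alone it was 8 of 91, where 3.73% of all merged regions met the rule. With those numbered 1 alone it was 1 of 95, against 0.718%. The same number of top-scoring peaks per list gave 2 of 65, against 1.31%. Asking for all 4 Fed lists gave 0 of 105, against 0.084%, as all 5 regions lack Fed (+Tetra) list 1. A score above the list's median gave 0 of 48, against 0.407%. Counts of 0 at such shares are near the background.

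All 5 lay inside their genes, with centres between 9854 and 19609 bp from the nearer end. At Slc5a1, chr5:33121578-33122646 had percentiles of 62.9 and 30.02 in the Fed (-Tetra) lists and 34.4 in Fed (+Tetra) list 2. At Lct, chr1:128312858-128313838 had 18.6, 14.8 and 21.9. At Mttp, chr3:138123303-138124315 had 33.5, 21.2 and 25.8. These were modest peaks, and only the one at Slc5a1 in Fed (-Tetra) list 1 was in the upper part of its list. At Cdhr2, chr13:54710920-54711713 had 19.8, 2.73 and 31.8. At Slc15a1, chr14:121489317-121490228 had 4.54, 21.0 and 2.11. In all 5 the list without a peak was Fed (+Tetra) list 1, and a Fast peak lay 258 to 2203 bp away.

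The genes themselves were not without acetylation in fasted crypts. Slc5a1, Slc15a1, Mttp and Cdhr2 were marked at an end in all 4 Fed and all 4 Fast lists and held 1, 4, 4 and 1 regions shared by all 8 lists. Lct was marked at an end in 2 Fed lists and 1 Fast list, and held 1 region shared by all 8 lists. Over the 105 regions, 34 had a peak in more Fed than Fast lists, 35 in more Fast than Fed lists and 36 in as many of each. Over all merged regions 18% had more Fed and 59.4% more Fast lists. The share of the 105 with a peak was 40%, 52.4%, 33.3% and 72.4% in the Fed lists and 48.6%, 54.3%, 50.5% and 39.0% in the Fast lists, in the order -Tetra 1, -Tetra 2, +Tetra 1 and +Tetra 2. Over all merged regions the shares were 28.1%, 37.5%, 25.1% and 38.3% in the Fed lists and 56.0%, 44.7%, 45.4% and 29.9% in the Fast lists. The 105 lay above these in every list but Fast (-Tetra) list 1. The Fed and Fast shares of the 105 overlap, and the highest was Fed (+Tetra) list 2.

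At the 15 genes of the crypt stem cell list, among them Lgr5, Olfm4 and Ascl2, none of the 184 regions met the rule. With 0.465% of all merged regions meeting it, a count of 0 among 184 is near the background. The opposite rule was met by 15 of the 184, against 1.45% of all merged regions. Of the 184, 17 (9.24%) had more Fed than Fast lists and 142 (77.2%) more Fast than Fed, against 18% and 59.4% of all merged regions. A region 38977 bp from Cd44, chr2:102940647-102941668, had Cd44 as its nearest gene but covered the start of a noncoding RNA gene, Gm34483.

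The remaining gene lists held at most 4 Fed-only regions each, so that their shares rest on very few regions and are to be read beside the 0.465% over all merged regions. For sterol and fatty acid synthesis there were 2 of 142 regions (1.41%), inside Sqle, squalene epoxidase, and Mlxipl, the sugar-responsive factor ChREBP. The region in Sqle, chr15:59319417-59320395, had all 4 Fed lists at percentiles of 34.1, 35.2, 32.1 and 46.4. For the circadian clock there were 2 of 133 (1.5%), in Per3, chr4:151005605-151006665, whose nearest Fast peak was 28616 bp away, and at the clock repressor Bhlhe40, chr6:108665171-108666249. Both genes were marked at an end in all 4 Fast lists. For insulin and mTOR signalling there was 1 of 200 (0.5%), in Foxo3, and for genes of fasting and fatty acid oxidation 0 of 133.

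For Wnt, Notch, BMP and Hippo signalling there were 4 of 304 regions (1.32%), against 8 of the opposite rule, 1 of which lay in Tle6. The 4 were at the co-repressor Tle3, at its relative Tle6 and at Smad4, the shared mediator of BMP and TGF-beta signals, which held 2. A further region lay 105596 bp from Tle3, chr9:61265689-61266729, and ranked second of all 522, with percentiles of 69.0 in Fed (-Tetra) list 2, 44.0 in Fed (+Tetra) list 1 and 63.8 in Fed (+Tetra) list 2. The region nearest Bmp4 lay 298703 bp away and that nearest Yap1 1683 bp away. Intestinal transcription factor genes held 0 of 220, although Gata6, Klf4 and Maf were the nearest genes of 1 region each, at 114296, 58809 and 143855 bp.

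Among interferon and Schlafen genes there was 1 of 38 (2.63%), 908 bp outside Slfn2, a regulator of lymphocyte quiescence. It had all 4 Fed lists and no Fast peak within 13618 bp. Among immune genes there was 1 of 71 (1.41%), at Cd7, a surface protein of lymphocytes. A region 15943 bp from Cd8b1, a chain of the CD8 co-receptor, had it as nearest gene. The regions at Cd7 and Cd8b1, like those at Tyrobp and Pvrig, were missing from Fed (+Tetra) list 1. Cd7 was also marked at an end in 2 Fast lists. Fed (+Tetra) list 1 had peaks at 2 of the 20 immune marker genes, which include Cd7, and the other Fed lists at 7 to 11. The part of immune cells in these regions was not tested. The lists for secretory lineages, cell cycle, microbe-induced defence, stromal and epithelial genes held 0 Fed-only regions of 54, 84, 62, 48 and 88.

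**Figure D4:**
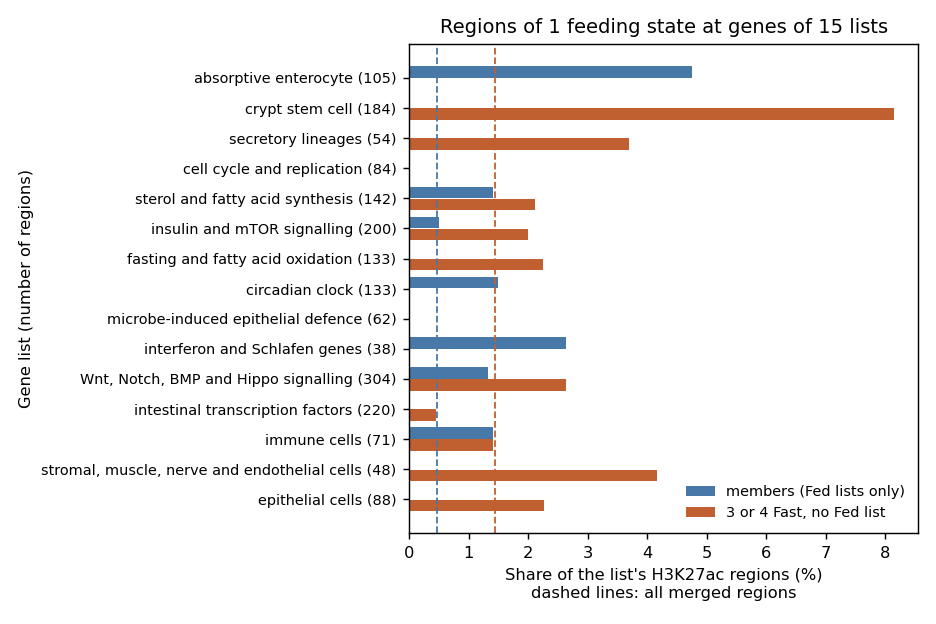
Percentage of the merged H3K27ac regions at the genes of each list (x axis; the number of regions is in brackets) that were Fed-only (blue) or followed the opposite rule (orange), with the shares over all merged regions, 0.465% and 1.45%, as dashed lines. The absorptive enterocyte list, 4.76%, has the longest blue bar, from 5 regions, and the crypt stem cell list has the longest orange bar, from 15.

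H3K9ac, which the rule did not use, differed between feeding states at these regions by less than the spread between lists. A peak of H3K9ac overlapped 5.56% and 17.6% of the 522 in Fed (-Tetra) lists 1 and 2 and 9.39% and 16.1% in Fed (+Tetra) lists 1 and 2. In the Fast lists it overlapped 13.0% and 8.62% without and 15.1% and 11.7% with tetracycline. The means were 12.2% and 12.1%, a difference of 0.048 percentage points, against an SD of 5.27 points between the lists of a group (4 groups of 2 lists). The ranges of the Fed and Fast lists overlapped, and the lowest and the highest value were both in Fed lists.

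The difference depended on the number of the list. Over lists numbered 1 it was -6.61 points and over lists numbered 2 it was 6.70 points. It was 0.766 points without and -0.670 with tetracycline. The H3K9ac lists are of very unequal length, from 17249 peaks in Fed (-Tetra) list 1 to 99050 in Fast (-Tetra) list 1. Over all merged regions the difference was -2.15 points over all lists, -8.04 in lists 1 and 3.73 in lists 2. Length and list number cannot be told apart here. For the regions of the opposite rule the difference was -9.57 points, with 6.58% in Fed and 16.2% in Fast lists. It was below 0 in lists 1 (-16.6) and in lists 2 (-2.52).

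**Figure D5:**
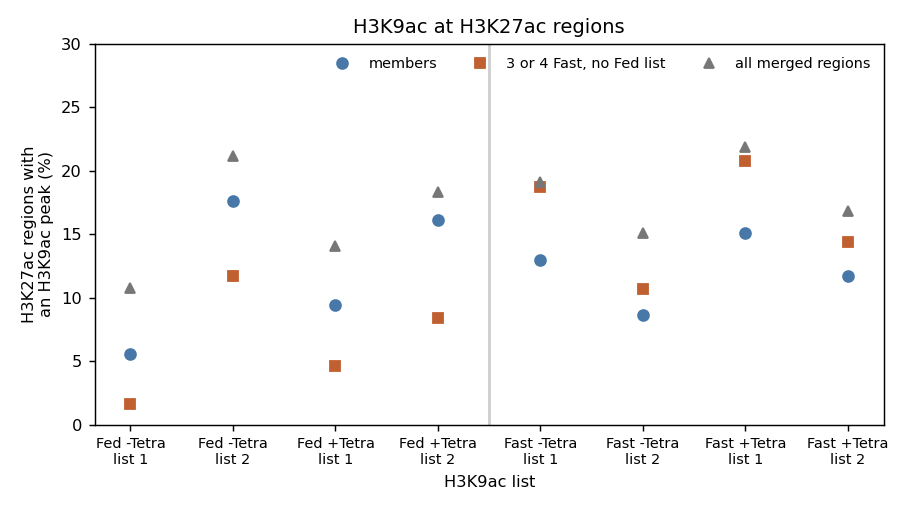
Percentage of regions overlapped by an H3K9ac peak (y axis) in each of the 8 H3K9ac lists (x axis) for the Fed-only regions, the regions of the opposite rule and all merged regions. For the Fed-only regions the Fed lists span 5.56% to 17.6% and the Fast lists 8.62% to 15.1%, so they overlap.

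Region by region, 231 of the 522 (44.3%) had no H3K9ac peak in any list, against 54.5% of all merged regions. H3K9ac peaks were in more Fed than Fast lists at 122 (23.4%) and in more Fast than Fed lists at 124 (23.8%). Over all merged regions these shares were 13.9% and 20.7%. The Fed-only pattern in H3K9ac, 3 or 4 Fed lists and no Fast list, was met by 6 of the 522 (1.15%), against a background of 0.256% of merged regions. The Fast-only pattern was met by 1 (0.192%), against 0.536%. The 6 of the Fed-only pattern included regions at Tekt4, Lmo2, D5Ertd579e, Car6 and Skida1. Both counts are small.

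The 6 regions that were Fed-only in both marks had low H3K27ac scores, with median percentiles of at most 24.4. The region nearest Skida1, chr2:18028459-18029092, was the only one with H3K9ac in all 4 Fed lists, and its H3K27ac percentiles were 14.1, 6.79 and 7.37 in the 3 Fed lists that held it. In Lmo2, a LIM-domain cofactor of blood cell development, chr2:103969231-103969923 had 48.3, 24.0 and 4.76, and the nearest Fast H3K27ac peak was 24003 bp away. At Car6, a secreted carbonic anhydrase, chr4:150187797-150188624 lay at the gene end and had 11.1, 38.6 and 2.32. At Tekt4, of the tektin family, the median was 24.4. Of the 45 gene-end regions, 9 had no H3K9ac peak and 6 had one in 3 or 4 Fed lists. Of the 25 regions that covered a listed start site, 21 had H3K9ac in at least 1 list. The same shares over all merged regions at gene ends and start sites are not given here.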

How the data were processed

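H3K27ac and H3K9ac CUT&Tag was analysed in 8 samples (8 groups, 1 sample each) from 16 peak lists. Each line of the deposited lists holds a peak's position, a MACS name and a score of at least 50. The authors do not state the unit of the score, so it was only ranked within a list. FastQC, Bowtie, SAMtools and the build mm10 are named in the submitters' processing notes. Versions, the peak calling cutoff, the use of the IgG and the depth are not given in the sources used here. The list names call the data downsampled.

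Members are the merged regions with a peak in at least 3 of 4 Fed and 0 of 4 Fast H3K27ac lists. Gene positions came from RefSeq (GRCm38.p6, 21887 protein-coding genes, no strand), and a gene end is either end, within 1 kb. The members and the 15 gene lists were chosen with earlier results of these data known. Regions were named by this rule: the 12 at gene ends and the 10 with all 4 Fed lists elsewhere that had the highest median score percentile, those Fed-only in H3K9ac, genes nearest to 3 or more, and every gene of the lists. One item that the rule names is not reported here. Peaks on other sequences were left out except in an alternative. Nothing was tested, because each group is 1 sample with 2 lists. The counting was tested on simulated lists. The alternatives changed the score cutoff, list length, lists used, overlap, gaps, peak width, sequences, threshold, distance to Fast peaks and gene-end window. Tables were made with pandas 2.3.3 and numpy 2.4.6 in Python 3.11.15, intervals with scipy 1.17.1 and figures with matplotlib 3.10.9.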

Additional observations from a re-analysis of the deposited data

Results flagged for a closer look

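The Fed minus Fast difference in the percentage of Fed-only regions with an H3K9ac peak had opposite signs in the lists of the 2 numbers. In lists 1 it was -7.47 points without and -5.75 points with tetracycline, and in lists 2 it was 9.00 and 4.41 points. The mean of lists 2 exceeded that of lists 1 by 13.3 percentage points. This difference was not tested.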

How the results depend on the processing

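No paired analysis was possible because the results come from no test, and Fed and Fast lists of one number were only set side by side. The number of Fed-only regions, 522, became 190 with peaks above each list's median score (2 of the 522 were recovered), 94 with all 4 Fed lists, 1413 without and 1256 with tetracycline alone, and 705 to 2486 when the lists of 1 number were left out. The other 6 settings gave 354 to 780. Where only 2 Fed and 2 Fast lists remained, both Fed lists and neither Fast list had to hold a peak. With every list cut to the length of the shortest by score, the 780 included 138 of the 522. The share at gene ends, 8.62%, was 14.7% above the median score, 13.3% with equal list lengths, 12.9% without and 11.9% with tetracycline alone, 14.6% with a window of 2.5 kb, and 12.4% to 13.6% when the lists of 1 number were left out. The share of all merged regions at gene ends was not computed under these settings. These values therefore cannot be set against the background of the main setting. The H3K9ac difference, 0.048 points, was 6.19 with equal list lengths and -5.46 to 7.28 when the lists of 1 number were left out. The count of 5 at enterocyte genes, whose settings were added after the data were seen, fell to 0 above the median score and with all 4 Fed lists. With tetracycline alone it was 0 of 95, against 1.80% of all merged regions, which is near the background (the 5 regions all lack 1 of those lists). With equal list lengths it was 2 of 65, against 1.31%. With peaks at least 500 bp wide it was 2 of 88, against 0.666%. Without regions within 1 kb of a Fast peak it was 2 of 105, against 0.315%. It was 1 to 8 when the lists of 1 number were left out. The share of all merged regions that met the rule moved as well. It ran from 0.084% with all 4 Fed lists to 3.73% with the lists numbered 1 left out. The depth is unknown, so absence of a peak does not show absence of the mark, and most of the regions had scores in the lower part of their lists.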

Other observations

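The Fed-only regions were spread over the chromosomes much as all merged regions were. The widest gaps were on chromosome 14, with 6.13% of the Fed-only regions and 4.01% of all, on chromosome 12, with 2.49% and 4.2%, and on chromosome 17, with 2.68% and 4.34%. On unplaced and patch sequences 3 of 673 further regions met the rule. A Fed-only region inside Cubn, the ileal receptor for intrinsic factor, chr2:13483066-13483918, lay 5 bp from a Fast peak, and it was singled out after its values were seen.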
